A study of Homo sapiens with 18 samples.

Results

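Control cells of BT549 were compared with control cells of Hs578T, both of them human triple-negative breast cancer (TNBC) cell lines that the study counts as mesenchymal-like. The members were the 6 libraries labelled siCtrl of these lines (3 of BT549 and 3 of Hs578T) out of 18 in the series, and the probes with a mean normalised count of at least 10 over these 6 libraries, which were 9820 of 21111. All 6 cultures had been transfected at 50 nM with the siRNA control (siCtrl), and the RNA was read 72 h later. The siRNA control was described by the methods as a pool of siRNAs against kinases. No untransfected culture entered the comparison, so every value is that of a transfected cell, and each line is 1 established culture and not a sample of TNBC tumours. The series was made to compare siRNA against ASAP1 with siCtrl in BT549, Hs578T and the basal-like line SUM149PT, and the siASAP1 libraries of BT549 and Hs578T serve below as a second set of libraries for the same line contrast.

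Expression was measured by TempO-Seq, in which pairs of detector oligos are ligated on their target RNA and the ligated product is sequenced and counted, so that a probe reads a short stretch of 1 transcript. A mesenchymal-like breast cancer cell has lost the junctions and cytokeratins of the gland epithelium and carries the intermediate filament vimentin, N-cadherin and fibronectin of connective tissue cells. Which further genes such a cell uses (its matrix, growth factor receptors, immune genes and chromatin factors) differs from line to line. BT549 is known for the loss of the tumour suppressor RB1, and Hs578T for an activated HRAS and the loss of CDKN2A.

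The control libraries held 5.76 to 9.46 M reads in BT549 and 7.83 to 9.10 M in Hs578T. Replicates correlated at 0.857 to 0.964 (Pearson, log2 values of the tested probes), and the lowest values belonged to the BT549 siCtrl 1 library and the Hs578T siCtrl 3 library, which stood apart from the other two of their line. Counts are therefore given with all 6 libraries and also without these 2.

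Of 9820 tested probes, 1980 differed between the lines (20.2%), by a limma test with a Benjamini-Hochberg adjusted p under 0.05 and an absolute log2 difference over 1. In BT549, 923 probes were higher (9.40%), and in Hs578T 1057 (10.8%). Counted by gene, with the probe of the highest mean count for each symbol, 873 of 9268 genes were higher in BT549 (9.42%) and 1014 in Hs578T (10.9%). The median log2 difference (BT549 minus Hs578T) over all tested probes was 0.01, against a median of 2.69 among the probes called higher in BT549 and -3.43 among those called higher in Hs578T. In 1974 of the 1980 called probes the 3 libraries of one line lay entirely above those of the other, which was the case for 38.0% of all tested probes. Some calls were close to on and off, since 115 probes called higher in BT549 had 0 reads in the 3 Hs578T libraries, and 111 called higher in Hs578T had 0 reads in the 3 BT549 libraries. Without BT549 siCtrl 1 and Hs578T siCtrl 3, 1879 probes were called higher in BT549 and 2025 in Hs578T, and these included 1910 of the 1980. Fewer were called without other single libraries, 462 and 724 calls without BT549 siCtrl 2, 430 and 677 without BT549 siCtrl 3, and 565 and 667 without Hs578T siCtrl 1 (higher in BT549 and in Hs578T, respectively). When library totals replaced the deposited scaling, the median difference of all probes moved to 0.21 and the calls to 1089 and 909.

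**Figure D1:**
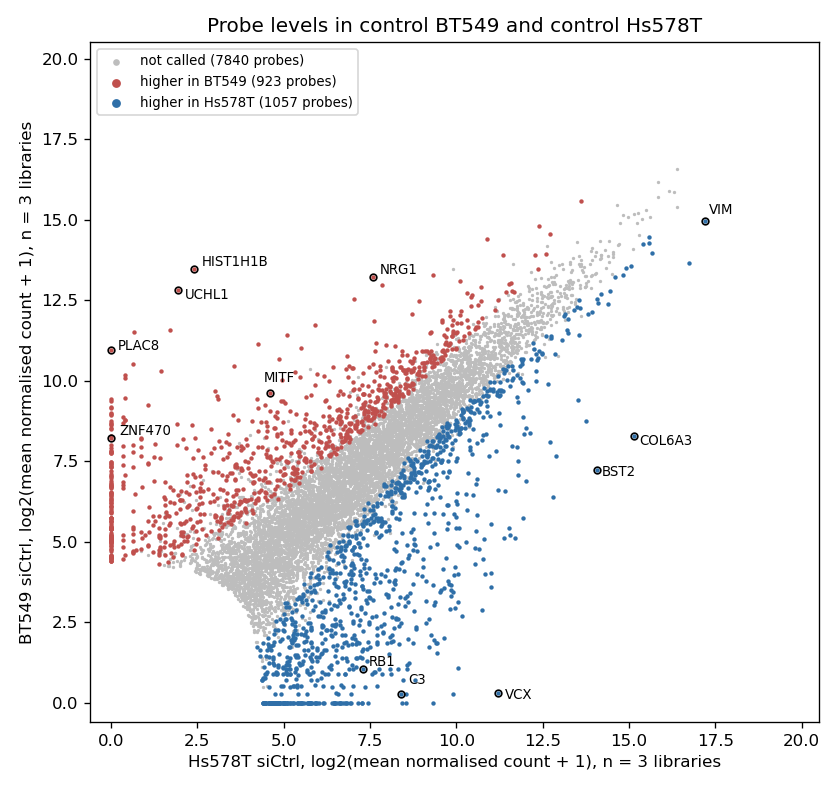
Each point is a tested probe, placed by its log2(mean normalised count + 1) in 3 Hs578T siCtrl libraries (x axis) and in 3 BT549 siCtrl libraries (y axis). Red points (923) were called higher in BT549 and blue points (1057) higher in Hs578T, and the columns of points at 0 on either axis are probes without a read in that line.

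Among the differences found in both sets of libraries, those at the top of BT549 were the linker histone gene HIST1H1B (histone H1.5) and UCHL1, a ubiquitin hydrolase abundant in neurons. The normalised counts of HIST1H1B were 15555, 9157 and 9001 in the BT549 libraries and 2.53, 6.53 and 3.94 in those of Hs578T. UCHL1 stood at 10989, 4920.5 and 5451 in BT549 and at 5.06, 2.45 and 0.985 in Hs578T. Both genes were high in every BT549 library and within a few reads of 0 in every Hs578T library, with log2 differences of 11.06 ± 0.40 (SE), adjusted p = 5.4e-06 for HIST1H1B and 10.91 ± 0.51 (SE), adjusted p = 6.8e-06 for UCHL1. PLAC8, a small cysteine-rich protein, had 3018, 1439 and 1473 in BT549 and 0 in all 3 libraries of Hs578T, at least 747-fold higher when the Hs578T value is set to a floor of 3 reads per library, the floor used for every such bound here. PLXDC2, a plexin-domain membrane protein, had 2567, 3143 and 3075 against 0, 0.816 and 0.985, a ratio of 5132 (95% counting interval 1420.5 to 42385). The Hs578T libraries held 0 or 1 read of PLXDC2 and none of PLAC8. The rest of the 10 with the highest log2 difference were the neural adhesion molecule NCAM2 (10.32), the zinc finger gene ZNF141 (9.95), the sialomucin PODXL2 (9.74), the cytochrome P450 CYP27C1 (9.71), the neuronal membrane protein SLITRK5 (9.37) and FOXRED2, a flavoprotein of the endoplasmic reticulum (9.35).

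At the other end were VCX and VCX3B, near-identical X-linked genes of the male germ line, and COX7A1, the muscle form of a cytochrome c oxidase subunit. VCX had 2038, 2267 and 2765 in Hs578T and 0, 0 and 0.701 in BT549, a log2 difference of -10.94 ± 0.46 (SE), adjusted p = 5.4e-06. VCX3B followed with 921, 973 and 954 against 0, 0.629 and 0, but reads of these copies cannot be told apart with certainty. COX7A1 had 1084, 1192 and 878 in Hs578T and 1.25, 0 and 2.10 in BT549, 941-fold higher (-9.09 ± 0.55 (SE), adjusted p = 2.2e-05). All 3 genes were high in every Hs578T library and at 0 to 3 reads in each library of BT549. The branched-chain aminotransferase BCAT1 had 694, 731 and 677 against 0, 5.03 and 0.701 (-8.33), and VCAM1, an adhesion molecule to which leukocytes bind, 263, 671 and 406 against 0, 1.89 and 0 (-8.19). The complement component C3 was at 309, 347 and 351 in Hs578T and 0, 0.629 and 0 in BT549 (-8.16). Further genes of this group were ZNF423, a zinc finger factor of fat cell precursors (-8.31), the dynein light chain DYNLT3 (-8.24), the kinase PRKD1 (-8.11) and the small heat shock protein gene HSPB8 (-8.05).

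**Figure D2:**
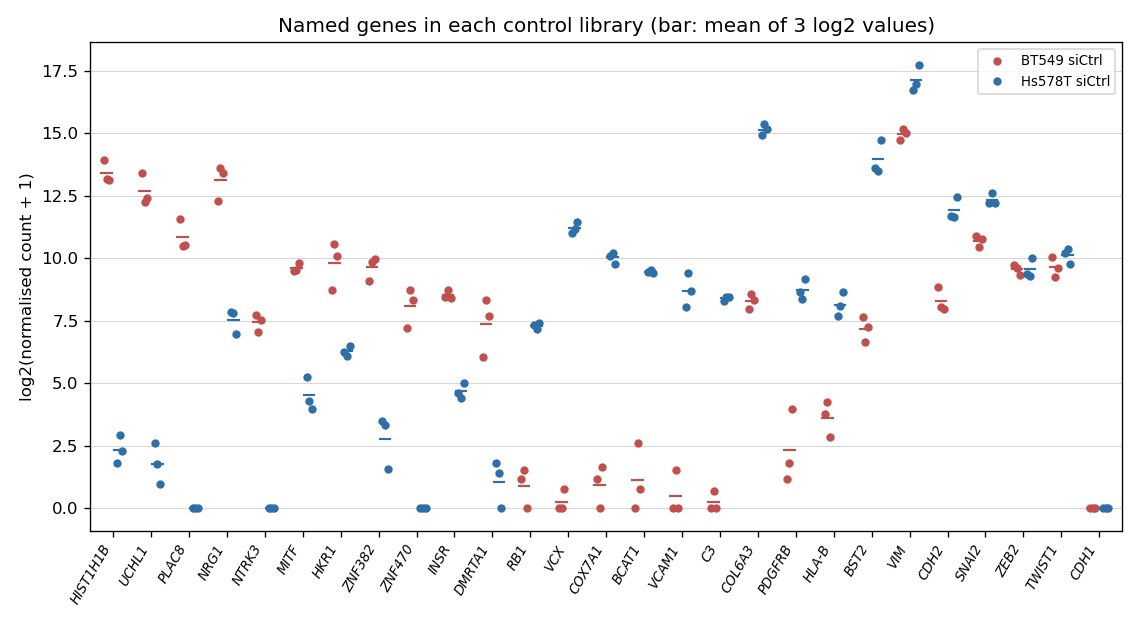
Log2(normalised count + 1) of named genes in each of the 6 control libraries, red for BT549 and blue for Hs578T, with a bar at the mean of the 3 log2 values. HIST1H1B to DMRTA1 sit higher in BT549 and RB1 to SNAI2 higher in Hs578T without overlap, whereas ZEB2 and TWIST1 overlap and CDH1 has no read in either line.

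The promoters of UCHL1 (higher in BT549) and of VCAM1, F3 and IL1A (higher in Hs578T) are shown with TATAAA, the TATA box, and TGACTCA, an AP-1 site, in capitals on either strand (TTTATA and TGAGTCA are the reverse readings), as examples of genes much lower in one line. F3, tissue factor, which starts blood clotting, had 324, 373 and 252 in Hs578T and 0, 2.52 and 12.6 in BT549 (-6.43 ± 0.87 (SE), adjusted p = 0.001), and the cytokine gene IL1A 26.2, 206 and 16.7 and 0 in all 3 BT549 libraries (-5.53 ± 1.00 (SE), adjusted p = 0.0047). The RefSeq windows (GRCh38.p14), read 5′ to 3′ from 250 bases before to 50 after the gene start, lie at chr4:41256678-41256977 (plus strand), chr1:100719492-100719791 (plus strand), chr1:94541710-94542009 (minus strand) and chr2:112784444-112784743 (minus strand).
UCHL1: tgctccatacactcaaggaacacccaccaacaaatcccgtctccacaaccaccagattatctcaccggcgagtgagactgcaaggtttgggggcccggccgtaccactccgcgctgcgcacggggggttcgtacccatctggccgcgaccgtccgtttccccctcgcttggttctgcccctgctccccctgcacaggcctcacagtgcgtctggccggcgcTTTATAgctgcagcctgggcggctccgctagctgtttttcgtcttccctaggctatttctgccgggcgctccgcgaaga
VCAM1: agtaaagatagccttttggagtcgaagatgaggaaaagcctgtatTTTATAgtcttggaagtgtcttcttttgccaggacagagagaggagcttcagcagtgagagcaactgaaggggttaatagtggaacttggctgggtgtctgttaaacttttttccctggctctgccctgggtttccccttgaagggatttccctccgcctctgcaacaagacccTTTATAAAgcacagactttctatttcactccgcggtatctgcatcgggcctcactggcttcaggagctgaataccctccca
F3: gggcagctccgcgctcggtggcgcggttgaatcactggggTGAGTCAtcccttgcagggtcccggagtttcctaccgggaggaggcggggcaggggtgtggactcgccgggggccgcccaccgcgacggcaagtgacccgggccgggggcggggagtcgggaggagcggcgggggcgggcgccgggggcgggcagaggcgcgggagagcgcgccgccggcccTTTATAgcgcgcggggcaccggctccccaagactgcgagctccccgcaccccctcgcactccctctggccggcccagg
IL1A: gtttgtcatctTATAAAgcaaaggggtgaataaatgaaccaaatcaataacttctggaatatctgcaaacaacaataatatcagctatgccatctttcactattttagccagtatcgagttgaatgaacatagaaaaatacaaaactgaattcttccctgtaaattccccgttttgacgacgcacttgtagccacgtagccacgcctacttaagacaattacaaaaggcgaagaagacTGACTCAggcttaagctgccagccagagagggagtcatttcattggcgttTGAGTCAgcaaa
UCHL1, VCAM1 and F3 hold TATAAA on one strand or the other 28 to 31 bases before the start, and IL1A 239 bases before it. VCAM1 holds 3 matches, at 205 and 31 bases on the opposite strand and at 29 bases on its own. IL1A holds TGACTCA 12 bases before the start and again 38 bases after it, and F3 210 bases before it. TATAAA occurs in 5.81% and TGACTCA in 2.85% of the 7623 windows. No share by direction is given, because 77.1% of the genes called higher in Hs578T had a window, under the minimum of 80% set for such a comparison. The promoters shown were picked as examples and are not a sample of the called genes. A match of letters shows no binding.

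The tumour suppressor RB1, which holds back the E2F factors at entry into S phase, separated the lines. Its normalised counts were 1.25, 1.89 and 0 in BT549 and 159, 144 and 170.4 in Hs578T, with no overlap and a log2 difference of -6.41 ± 0.64 (SE), adjusted p = 1.8e-04. LPAR6, a receptor for lysophosphatidic acid whose gene lies inside an intron of RB1, went the other way, with 421, 465 and 600.5 in BT549 and 64.1, 78.3 and 3.94 in Hs578T (4.06 ± 0.93 (SE), adjusted p = 0.015). The call of LPAR6 was lost without BT549 siCtrl 2 or BT549 siCtrl 3 (adjusted p up to 0.074). Other near genes on chromosome 13 (HTR2A, SUCLA2, MED4, RCBTB2, FNDC3A and CAB39L) were not called by limma, with log2 differences from -3.29 to 1.35.

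CDKN2A, the gene of the cell cycle inhibitors p16 and p14ARF, had too few reads to be tested, with 3.74, 0.629 and 5.61 in BT549 and 0 in all 3 libraries of Hs578T. Its neighbours on chromosome 9 were measured. The neighbouring inhibitor gene CDKN2B had 59.9, 47.8 and 38.6 in BT549 and 11.8, 2.45 and 7.88 in Hs578T (2.74 ± 0.67 (SE), adjusted p = 0.02), and MTAP, the methylthioadenosine phosphorylase, 84.9, 118 and 114 and 50.6, 12.2 and 18.7 (2.15 ± 0.59 (SE), adjusted p = 0.031). DMRTA1, a transcription factor gene beyond CDKN2B, had 66.1, 324 and 203 against 2.53, 1.63 and 0 (6.29 ± 0.80 (SE), adjusted p = 7.1e-04). These 3 genes were higher in BT549 without overlap, while FOCAD, KLHL9, IFNE, TUSC1 and CAAP1 further out did not pass the test. The call of CDKN2B was lost without 3 of the 6 libraries (BT549 siCtrl 2 and 3 and Hs578T siCtrl 2) and that of MTAP without 4 (also Hs578T siCtrl 3), with adjusted p up to 0.075 and 0.13. In the siASAP1 libraries, CDKN2B (3.06) and MTAP (1.92) were again called and DMRTA1 was not (2.35, adjusted p = 0.18).

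HRAS, the oncogene of Hs578T, had 1413, 700.1 and 1791 in Hs578T and 594, 585 and 457 in BT549, which did not pass the test (-1.16 ± 0.38 (SE), adjusted p = 0.064), and these counts do not show a mutation. Of the driver genes of the screen, MYC (0.88 ± 0.31 (SE), adjusted p = 0.08), EGFR (0.58 ± 0.48 (SE), adjusted p = 0.44) and ASAP1 (-0.88 ± 0.32 (SE), adjusted p = 0.083) were likewise not called, and DRD1, a dopamine receptor, was higher in Hs578T with 60.8, 41.6 and 22.7 against 2.50, 0 and 0 (-4.71). ERBB2 (0.37, adjusted p = 0.72) did not pass either.

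Both lines held the markers chosen to check the label mesenchymal-like apart from ZEB1, whose probe had few or no reads. More of those called were higher in Hs578T. VIM, the vimentin gene, was at 108625, 126601 and 218739.6 in Hs578T and 27346, 36307 and 32649 in BT549 (-2.18 ± 0.37 (SE), adjusted p = 0.0035). CDH2, N-cadherin, had 3264, 3222 and 5543 and 462, 262 and 253 (-3.63 ± 0.36 (SE), adjusted p = 1.8e-04), and the fibronectin gene FN1 18994, 22109 and 14897 and 6137, 6277 and 7517 (-1.48 ± 0.29 (SE), adjusted p = 0.0068). Libraries did not overlap for these 3 genes, nor for the transcription factor gene SNAI2, with 4698, 6253 and 4786 in Hs578T and 1874, 1392 and 1754 in BT549 (-1.65 ± 0.28 (SE), adjusted p = 0.0031). ZEB2 (-0.01), TWIST1 (-0.47), SPARC (-0.29), AXL (-0.71) and CDH11 (0.78) did not pass the test, and the ZEB1 probe held 3 reads in 1 library and 0 in the others. Whether that probe can detect ZEB1 RNA was not tested, so these reads do not show that ZEB1 is absent. Over the whole list, 17 of 17 mesenchymal markers passed the filter, of which 2 were called higher in BT549 and 7 in Hs578T (2 and 10 without the 2 libraries). The 2 higher in BT549 were LOX, which crosslinks collagen (25455, 21995 and 17887 against 1135, 2579 and 1985), and FSTL1, a secreted glycoprotein (73527, 32399 and 39959 against 11909, 13911 and 11960.4).

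Of the epithelial markers, CDH1 (E-cadherin), CLDN3, GRHL2, OVOL1 and KRT19 had 0 reads in the 6 control libraries of both lines. In SUM149PT, CDH1 averaged 98.7, GRHL2 96.0, OVOL1 365 and KRT19 185 normalised counts over 3 siCtrl libraries, so that these probes detected RNA there, whereas the CLDN3 probe was at 0 there too. EPCAM was low in both lines, 22.8, 10.6 and 23.6 in Hs578T and 1.25, 2.52 and 1.40 in BT549 (-2.83 ± 0.73 (SE), adjusted p = 0.025), against a mean of 29532 in SUM149PT. The EPCAM call was lost without BT549 siCtrl 2 or 3 or Hs578T siCtrl 1 (adjusted p up to 0.098). Not all epithelial markers were silent, since KRT8, KRT18 and ESRP1 passed the filter on the mean count. None of them was called by limma (KRT8 -0.32, adjusted p = 0.80, KRT18 -2.20, adjusted p = 0.11, ESRP1 0.50, adjusted p = 0.83). CLDN4 and CLDN7 did not pass the filter. The junction genes OCLN (44.9, 72.9 and 89.1 against 2.53, 3.26 and 0) and CLDN1 (8.73, 42.1 and 39.99 against 0 in all 3) were higher in BT549. DSP, the desmosomal protein desmoplakin, was higher in Hs578T (22.8, 17.1 and 13.8 against 1.25, 5.66 and 0, -2.91 ± 0.88 (SE), adjusted p = 0.046), a call lost without any single library other than BT549 siCtrl 2 (adjusted p up to 0.16). The epithelial list held 31 genes, and among them 2 were called higher in BT549 and 2 in Hs578T of 8 tested (without the 2 libraries: 2 and 2). KRT80, a keratin of many epithelia, was higher in BT549 (610.2, 485 and 589 against 14.3, 11.4 and 28.6, 4.98 ± 0.44 (SE), adjusted p = 1.1e-04), and KRT34, a hair keratin, in Hs578T (48.9, 76.7 and 50.2 against 0 in all 3), although the second was not called in the siASAP1 libraries (adjusted p = 0.24). The surface marker CD24 was higher in BT549 (1.92, adjusted p = 0.04, lost without any single library other than Hs578T siCtrl 3, up to 0.13) and CD44 did not pass (0.79, adjusted p = 0.25).

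Gene lists chosen for this tissue are given below by the members called in each direction, beside the shares over all genes of 9.42% and 10.9%. A gene that passed the filter through 1 line alone had to differ, so these counts describe the lists and test nothing. For most lists the counts in the same order without the 2 libraries BT549 siCtrl 1 and Hs578T siCtrl 3 follow in brackets. That fit called 1879 and 2025 of 9820 probes, against 923 and 1057 with all 6 libraries. Bracketed counts are therefore not to be set beside 9.42% and 10.9%.

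**Figure D3:**
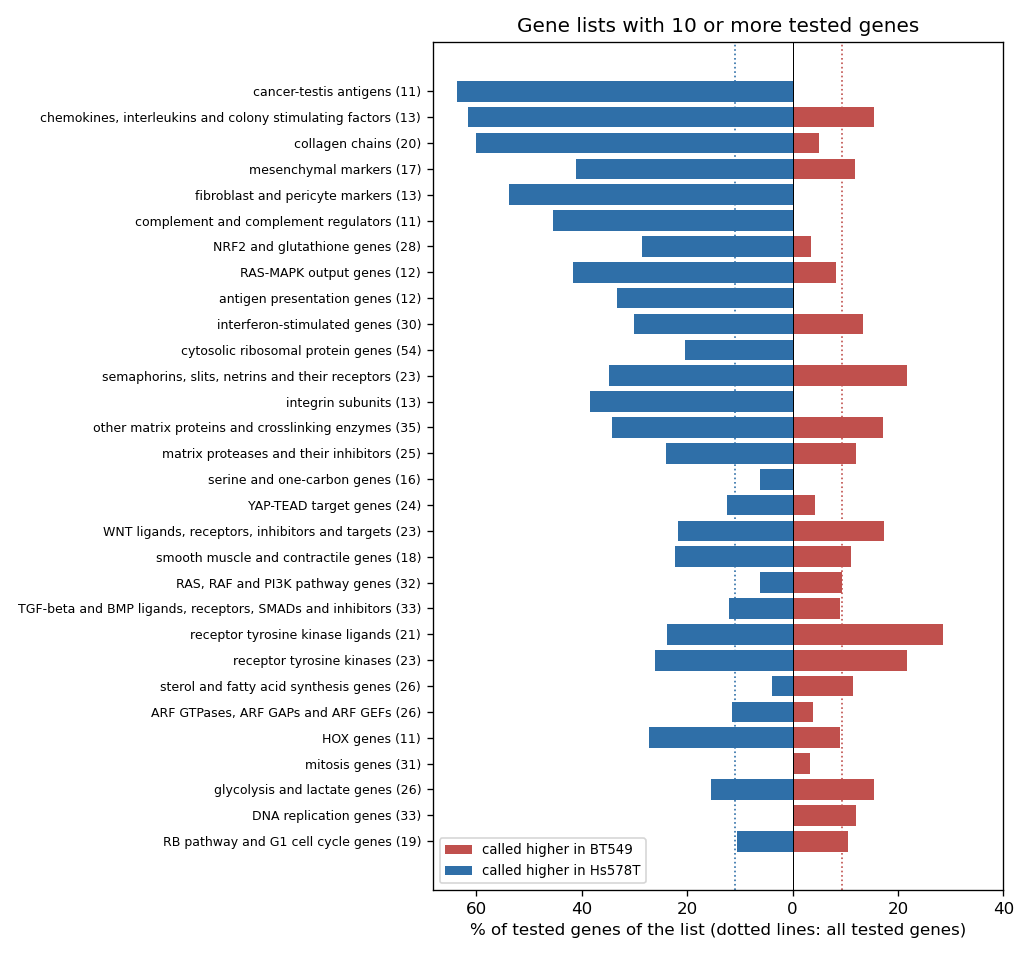
Share of the tested genes of each list called higher in BT549 (red, to the right) and in Hs578T (blue, to the left), for lists that each have 10 or more tested genes (number in brackets). Dotted lines mark the shares over all tested genes, 9.42% and 10.9%, and cancer-testis antigens, chemokines and collagens reach the farthest left.

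The collagens, which form the fibres and sheets of the extracellular matrix, were higher in Hs578T in 12 of 20 tested genes and in BT549 in 1 (without the 2 libraries: 11 and 3), with a median log2 difference of -1.498. The 3 chains of collagen VI showed this in every library. COL6A3 had 31098, 41692 and 36512 in Hs578T and 248, 374 and 316 in BT549, 117-fold higher (-6.87 ± 0.28 (SE), adjusted p = 5.4e-06). COL6A1 had 7558, 8043 and 7230.4 and 178, 177 and 243 (-5.26 ± 0.27 (SE), adjusted p = 1.2e-05), and COL6A2 196, 206 and 310.3 and 4.99, 5.66 and 2.81 (-5.45 ± 0.51 (SE), adjusted p = 1.4e-04). The 1 collagen higher in BT549 was COL5A2, with 258, 425 and 355 against 101.26, 138 and 110.3 (1.55 ± 0.35 (SE), adjusted p = 0.014), a call lost without BT549 siCtrl 2 or 3 or Hs578T siCtrl 1 (adjusted p up to 0.076). Other matrix genes were called in both directions, 12 of 35 higher in Hs578T and 6 in BT549 (without the 2 libraries: 13 and 11). The small leucine-rich proteoglycans lumican (LUM, -6.66) and biglycan (BGN, -6.62), the large proteoglycan versican (VCAN, -6.48) and the crosslinking enzyme LOXL3 (-7.10) were higher in Hs578T. The BT549 side held the elastic fibre genes FBLN2 (104, 165 and 218 against 0 in all 3 Hs578T libraries) and FBN2 (44.9, 76.1 and 54.0 against 0 in all 3), THBS2 (5.46) and MGP (4.05).

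Integrins, the receptors by which cells hold on to matrix, were called higher in Hs578T in 5 of 13 and in BT549 in 0 (without the 2 libraries: 7 and 2). The collagen-binding subunit gene ITGA11 had 2941, 4089 and 4667 in Hs578T and 27.5, 94.95 and 35.8 in BT549 (-6.36 ± 0.47 (SE), adjusted p = 4.6e-05). ITGA8 (-7.04) and ITGB8 (-5.95) went in the same direction. Among matrix proteases and inhibitors, 6 of 25 were higher in Hs578T and 3 in BT549 (without the 2 libraries: 9 and 6). MMP2, gelatinase A, had 1667, 2422 and 1406 against 31.2, 3.77 and 9.82 (-7.24 ± 0.65 (SE), adjusted p = 1.1e-04), and the metalloproteinase inhibitor TIMP3 181, 238 and 173 against 0, 0 and 2.81 (-6.97 ± 0.71 (SE), adjusted p = 2.0e-04). MMP3, stromelysin 1, was higher in BT549 (105, 47.8 and 152 against 4.22, 10.6 and 0), a call lost without BT549 siCtrl 3 (adjusted p = 0.058). Among contractile genes, 2 were called higher in BT549 and 4 in Hs578T of 18 tested (without the 2 libraries: 5 and 3), and with library totals as scaling 2 and 1. They included TAGLN (transgelin) at 1137, 729 and 675 in BT549 and 136, 75.9 and 176 in Hs578T (2.74 ± 0.40 (SE), adjusted p = 0.0016) and the light chain gene MYL9 at 1.86, against the leiomodin gene LMOD1 (-4.74) on the Hs578T side.

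Of 23 receptor tyrosine kinase genes tested, 5 were higher in BT549 and 6 in Hs578T (without the 2 libraries: 6 and 7). Both receptors of platelet-derived growth factor were on in Hs578T, PDGFRA with 827, 703 and 697 against 3.74, 13.8 and 11.9 (-6.26 ± 0.51 (SE), adjusted p = 7.2e-05) and PDGFRB with 403, 330.4 and 572 against 1.25, 2.52 and 14.7 (-6.41 ± 0.73 (SE), adjusted p = 3.9e-04). In BT549 NTRK3, a neurotrophin receptor, had 212, 132 and 184 and was at 0 in all 3 libraries of Hs578T, at least 66.5-fold higher, and the insulin receptor INSR had 347, 423 and 337 against 23.6, 20.4 and 31.5 (3.84 ± 0.39 (SE), adjusted p = 1.9e-04). Ephrin receptors went both ways, with EPHA3 (4.97) higher in BT549 and EPHB2 (-6.16) and EPHB3 (-4.53) in Hs578T. The ligands were called at 6 and 5 of 21 (without the 2 libraries: 8 and 6). Neuregulin NRG1, a ligand of ERBB3 and ERBB4, had 5046, 12539 and 10902 in BT549 and 228, 221 and 125 in Hs578T (5.57 ± 0.41 (SE), adjusted p = 4.9e-05), and the EGFR ligand HBEGF 4764, 4545 and 3663 and 318, 453 and 483 (3.38 ± 0.29 (SE), adjusted p = 8.7e-05). EGF itself (-4.62) and the macrophage factor CSF1 (-4.35) were higher in Hs578T at low counts.

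Output genes of the RAS-MAPK pathway, whose transcription follows ERK activity, were called higher in Hs578T in 5 of 12 and in BT549 in 1 (without the 2 libraries: 6 and 1). PHLDA1 had 3045, 6404 and 882 in Hs578T and 226, 255 and 253 in BT549 (-3.40 ± 0.61 (SE), adjusted p = 0.0047), and the ETS factor gene ETV5 359, 434 and 198 and 84.9, 44.6 and 46.3 (-2.47 ± 0.45 (SE), adjusted p = 0.0049). The spread among the Hs578T libraries was wide for these genes, with Hs578T siCtrl 3 lowest for both. In the siASAP1 libraries, 2 of the 5 called higher in Hs578T were called again, and the 1 higher in BT549 was not. There ETV5 (-0.81, adjusted p = 0.15) and PHLDA1 (-2.32, adjusted p = 0.052) did not pass the test. SPRY1, a feedback inhibitor, was higher in BT549 (1.34, adjusted p = 0.027), a call lost without BT549 siCtrl 2 or 3 or Hs578T siCtrl 1 or 2 (up to 0.11). Of the 32 RAS, RAF and PI3K pathway genes tested, 3 and 2 were called, or 9.4% and 6.25% (without the 2 libraries: 7 and 6). They included the insulin receptor substrate IRS2 (19.96, 43.4 and 44.2 against 0.844, 0 and 0) and the RAS GAP gene RASAL2 (2.16) on the BT549 side and AKT1 (-1.80) on that of Hs578T.

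Genes of DNA replication were called higher in BT549 in 4 of 33 and in Hs578T in 0 (without the 2 libraries: 9 and 1), with a median log2 difference of 0.51. With all 6 libraries this is 12.1% and 0%, beside 9.42% and 10.9% over all genes, so the BT549 share was near that of all genes. The licensing factor gene CDT1 had 673, 878 and 1026 in BT549 and 294, 235 and 382 in Hs578T (1.502 ± 0.32 (SE), adjusted p = 0.011), and POLA1, the catalytic subunit of DNA polymerase alpha, 76.1, 81.1 and 49.8 and 15.2, 4.90 and 7.88 (2.86 ± 0.60 (SE), adjusted p = 0.0095). GINS2 (1.60) and the primase subunit gene PRIM2 (1.34) were called in the same direction. Each of these 4 calls was lost without at least 1 of BT549 siCtrl 2 and BT549 siCtrl 3, with adjusted p from 0.053 for POLA1 to 0.091 for GINS2 at the highest, and further ones without other libraries. The list of 31 mitosis genes held 1 called gene, AURKA (1.27), and without the 2 libraries 6 were higher in BT549 and 3 in Hs578T. In the RB pathway list, 2 were called higher in BT549 and 2 in Hs578T of 19 tested (without the 2 libraries: 6 and 3). With all 6 libraries this is 10.5% in each direction, near the shares over all genes. Besides RB1 and CDKN2B the called genes were E2F5, higher in BT549 (594, 341 and 482 against 93.7, 99.5 and 13.8, 3.15, lost without BT549 siCtrl 3, adjusted p = 0.064), and E2F7, higher in Hs578T (-1.52). The calls of AURKA and E2F7 were lost without 4 or more of the 6 libraries.

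Chemokine, HLA class I and complement genes that were called were mostly higher in Hs578T. Of 13 tested chemokine, interleukin and colony stimulating factor genes, 8 were higher in Hs578T and 2 in BT549 (without the 2 libraries: 9 and 2). IL32 had 338, 554 and 158 in Hs578T and 1.25, 0.629 and 0 in BT549 (-7.65 ± 0.67 (SE), adjusted p = 9.7e-05), and the chemokine gene CCL28 213, 259 and 149.8 and 8.73, 1.26 and 0 (-6.18 ± 0.84 (SE), adjusted p = 0.001). The CXC chemokines were called in both directions. CXCL5 (111, 66.7 and 75.1 against 0 in all 3 libraries) and CXCL1 (1662, 956 and 993 against 158, 818 and 145) were higher in BT549. CXCL8 was higher in Hs578T (-4.76, adjusted p = 2.2e-04), and CXCL2 was not called by limma (-1.09, adjusted p = 0.15). The CXCL1 call was lost without any single library other than Hs578T siCtrl 2 (adjusted p up to 0.15), and also without the 2 libraries. Among antigen presentation genes, 0 were called higher in BT549 and 4 in Hs578T of 12 tested (without the 2 libraries: 0 and 7). Among them are the HLA class I genes, which display peptides to T cells. HLA-B had 12.5, 18.2 and 6.31 in BT549 against 205, 273 and 399 in Hs578T (-4.51 ± 0.52 (SE), adjusted p = 4.3e-04), and HLA-C 63.6, 9.43 and 13.3 against 457, 589 and 281 (-4.31 ± 0.69 (SE), adjusted p = 0.0024), without overlap. These genes are near-identical in sequence and vary between people, so that their probes may not bind all alleles alike, which was not tested. ERAP2, which trims the peptides, was also higher in Hs578T (1294, 1595 and 1021 against 66.1, 182 and 170.5, -3.32 ± 0.43 (SE), adjusted p = 8.3e-04).

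Complement genes were called higher in Hs578T in 5 of 11 and in BT549 in 0 (without the 2 libraries: 6 and 0). Next to C3 these were factor B (CFB, 300.4, 704 and 279 against 0, 5.03 and 2.81), factor I (CFI, -4.17), C1R (-3.96) and C1S. Interferon-stimulated genes were called in both directions, 9 of 30 higher in Hs578T and 4 in BT549 (without the 2 libraries: 13 and 6). Tetherin (BST2), which holds enveloped virions at the cell surface, had 12532, 11497 and 27272 in Hs578T and 198, 99.4 and 152 in BT549 (-6.77 ± 0.41 (SE), adjusted p = 2.2e-05). The antiviral genes HERC5 (115, 275 and 291 against 4.22, 0 and 9.85) and XAF1 (5.92) were higher in BT549.

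Cancer-testis antigens, germ-line genes that tumours can express, were called higher in Hs578T in 7 of 11 tested genes and in BT549 in 0 (without the 2 libraries: 8 and 0). MAGEC2 had 634, 726 and 632 in Hs578T and 2.50, 2.52 and 18.2 in BT549 (-6.75 ± 0.68 (SE), adjusted p = 1.9e-04). MAGEA3 had 146, 174 and 113 and 0, 3.77 and 9.12 (-5.30), and MAGEA1 44.7, 34.3 and 32.5 and 0 in all 3 BT549 libraries. On chromosome X, 10 neighbouring GAGE genes were called higher in Hs578T in a row, but GAGE and MAGEA copies are near-identical, so that they count as families and not as separate genes. Of 11 HOX genes tested, 3 were higher in Hs578T (HOXB9, HOXA2 and HOXA10) and 1 in BT549, HOXC12, with 82.4, 61.0 and 73.7 against 0 in all 3 libraries (without the 2 libraries: 4 and 1).

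In the signalling lists of development the calls were split. Of 23 WNT genes tested, 4 were higher in BT549 and 5 in Hs578T (without the 2 libraries: 4 and 8). The secreted factor DKK3 had 514, 435 and 351 in BT549 and 0, 0 and 0.985 in Hs578T (8.42 ± 0.57 (SE), adjusted p = 3.2e-05), and the R-spondins RSPO2 (4.93) and RSPO3 (5.06) were also on the BT549 side. The non-canonical ligand WNT5A had 692, 849 and 535 in Hs578T and 19.96, 35.2 and 33.7 in BT549 (-4.52 ± 0.39 (SE), adjusted p = 9.5e-05), and the transcription factor LEF1 205, 241 and 219.7 and 21.2, 9.43 and 6.31 (-4.22 ± 0.53 (SE), adjusted p = 6.8e-04). Among NOTCH pathway genes, 2 were called higher in BT549 and 2 in Hs578T of 9 tested (without the 2 libraries: 2 and 2). NOTCH3 (394, 857 and 739 against 11.8, 35.1 and 41.4, 4.55 ± 0.54 (SE), adjusted p = 5.1e-04) was higher in BT549, and the ligand DLL1 (-4.89) and target HEY1 (-4.85) in Hs578T. Among TGF-beta and BMP genes, 3 were called higher in BT549 and 4 in Hs578T of 33 tested (without the 2 libraries: 6 and 4). BMP5 had 104, 213 and 193 in BT549 and was at 0 in all 3 Hs578T libraries, whereas BMP2 (-4.36) and LTBP1 (-3.78), a protein that holds latent TGF-beta in the matrix, were higher in Hs578T. Guidance genes (semaphorins, slits, netrins and receptors) were called at 5 and 8 of 23 (without the 2 libraries: 6 and 9), with SEMA5A at 889, 846 and 891 in Hs578T and 9.98, 10.7 and 14.7 in BT549 (-6.11 ± 0.37 (SE), adjusted p = 2.2e-05) and ROBO1 at 6864, 5514 and 6109 in BT549 and 1291, 1443 and 1368 in Hs578T (2.17 ± 0.25 (SE), adjusted p = 4.6e-04). Of the 5 melanocyte and neural markers tested, UCHL1 and the transcription factor MITF (708, 743 and 904 against 37.1, 18.8 and 14.8, 5.10 ± 0.43 (SE), adjusted p = 8.0e-05) were higher in BT549.

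NRF2 and glutathione genes, which detoxify electrophiles, were called higher in Hs578T in 8 of 28 and in BT549 in 1 (without the 2 libraries: 17 and 2). The glutathione transferases GSTM1 (1229, 1491 and 287 against 16.2, 3.77 and 0) and MGST1 (2261, 3111 and 849 against 3.74, 15.1 and 26.7) differed by -7.54 and -7.15 on the log2 scale. GSTM1 is deleted in the genome of many people, and no genotype was measured here. HMOX1, heme oxygenase, was higher in BT549 (897, 799.9 and 812 against 154, 116 and 113, 2.71 ± 0.30 (SE), adjusted p = 3.3e-04). Cytosolic ribosomal protein genes were called higher in Hs578T in 11 of 54 and in BT549 in 0, and without the 2 libraries in 41 and 0, and with library totals as scaling in 8 and 0. Their median log2 difference was -0.90, and RPL29 stood apart from the rest with 2126, 3092 and 2821 in Hs578T and 67.4, 18.2 and 15.4 in BT549 (-6.57 ± 0.53 (SE), adjusted p = 7.1e-05). Several of these genes have near-identical pseudogenes. Whether the RPL29 probe binds alike in both lines was not tested. Among sterol and fatty acid genes, 3 were called higher in BT549 and 1 in Hs578T of 26 tested (without the 2 libraries: 3 and 8). EBP, a sterol isomerase, had 352, 165 and 132 in BT549 and was at 0 in all 3 Hs578T libraries (at least 81.8-fold higher in BT549). Among glycolysis and lactate genes, 4 were called higher in BT549 and 4 in Hs578T of 26 tested (without the 2 libraries: 5 and 5). Of these, 1 and 3 were called again in the siASAP1 libraries. The hypoxia-related carbonic anhydrases CA12 (419, 636 and 625 against 3.74, 13.2 and 7.01) and CA9 (-3.98) were higher in Hs578T. The BT549 side included SLC2A3 (1.62, adjusted p = 0.016), a call lost without BT549 siCtrl 3 or Hs578T siCtrl 2 (adjusted p up to 0.084). The YAP-TEAD list holds YAP1, WWTR1 and TEAD genes besides targets. In it, 1 was called higher in BT549 and 3 in Hs578T of 24 tested (without the 2 libraries: 4 and 4). With all 6 libraries this is 4.17% and 12.5% beside 9.42% and 10.9% over all genes. YAP1, WWTR1 and the tested TEAD genes were not called, and no probe was matched to CCN1 or CCN2. Among serine and one-carbon genes, 0 were called higher in BT549 and 1 in Hs578T of 16 tested (without the 2 libraries: 1 and 3). Of 26 ARF GTPases and their GAPs and GEFs, the family of ASAP1, 1 and 3 were called (without the 2 libraries: 9 and 3).

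Among 17 runs of 4 or more neighbouring tested genes called in 1 direction, 5 lay in the zinc finger clusters of chromosome 19. In these, 28 neighbouring tested genes were called higher in BT549, in runs of 7, 7, 4, 6 and 4 genes with all 6 libraries, and apart from HKR1 and ZFP28, zinc finger genes as well, their symbols began with ZNF. Without BT549 siCtrl 3, the calls of ZNF14, ZNF506, ZNF253, ZNF93, ZNF486, ZNF85, ZNF567, ZNF418 and ZNF256 were lost, so that of the first run ZNF626 alone kept its call. Their highest adjusted p without a single library ran from 0.053 (ZNF506) to 0.19 (ZNF418). KRAB zinc finger proteins, the family that these clusters mainly encode, bind DNA and silence transposable elements. ZNF470 had 147, 424 and 325 in BT549 and 0 in all 3 Hs578T libraries, at least 113-fold higher. ZNF382 had 548, 926 and 1004 against 10.1, 8.98 and 1.97 (6.85 ± 0.59 (SE), adjusted p = 9.0e-05), and ZNF569 111, 113 and 123 against 0, 0.816 and 0 (6.58 ± 0.63 (SE), adjusted p = 1.6e-04). Hs578T was near 0 for these genes, and BT549 siCtrl 1 was the lowest BT549 library for all 3. Counted over symbols that begin with ZNF, a group chosen after the values were seen, 72 of 159 tested genes on chromosome 19 were higher in BT549 and 1 in Hs578T (45.3% and 0.629%), with a median log2 difference of 1.78, and without the 2 libraries 105 and 2. Without BT549 siCtrl 2 the count higher in BT549 was 34, and without BT549 siCtrl 3 it was 32. The ZNF genes elsewhere were called higher in BT549 in 36 of 162 (22.2%) and in Hs578T in 8. Other genes of chromosome 19 were called in 29 and 43 of 447 (6.49% and 9.62%). Members of this family share sequence, and reads of close copies may be split.

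Shown for the runs are the promoters of ZNF569 and ZNF850, with the letters CAGGTG (an E-box that SNAI and ZEB factors can bind) in capitals. They are windows of the same kind, from chr19:37467395-37467694 on the minus strand and chr19:36772758-36773057 on the minus strand.
ZNF569: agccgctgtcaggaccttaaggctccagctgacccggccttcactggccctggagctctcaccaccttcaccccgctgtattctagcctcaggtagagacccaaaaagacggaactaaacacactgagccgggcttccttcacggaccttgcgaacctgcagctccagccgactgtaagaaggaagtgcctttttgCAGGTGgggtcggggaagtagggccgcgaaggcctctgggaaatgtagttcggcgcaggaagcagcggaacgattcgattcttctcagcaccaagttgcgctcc
ZNF850: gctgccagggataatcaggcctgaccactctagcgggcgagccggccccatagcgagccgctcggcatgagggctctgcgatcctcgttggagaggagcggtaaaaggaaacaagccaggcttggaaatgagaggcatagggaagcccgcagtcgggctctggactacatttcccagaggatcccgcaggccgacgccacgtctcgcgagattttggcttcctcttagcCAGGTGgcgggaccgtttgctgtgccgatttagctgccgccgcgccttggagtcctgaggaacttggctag
Each holds 1 match, on the gene's own strand, 54 and 21 bases before the start, and 16.5% of the 7623 windows of tested genes hold these letters on either strand. The windows of ZNF569 and ZNF850 count 17 and 23 CG dinucleotides, against a median of 26 over all windows. Over the 23 of 28 run genes with a window the count ran from 8 to 42, with a median of 17. How many of these 23 windows hold CAGGTG was not counted. ZNF569 and ZNF850 were picked as examples and do not stand for the runs, and binding by any factor was not tested.

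**Figure D4:**
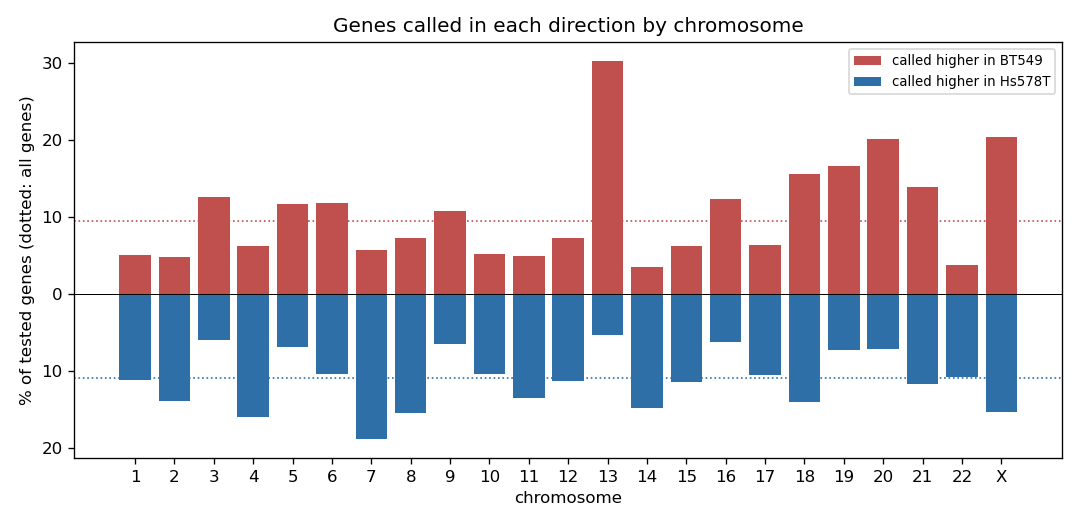
Share of the tested genes on each chromosome called higher in BT549 (red, upwards) and in Hs578T (blue, downwards), with dotted lines at the shares over all genes, 9.42% and 10.9%. Chromosome 13 has the tallest red bar, 30.2%, and chromosome 7 the longest blue bar, 18.8%.

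By chromosome, calls were uneven. On chromosome 13, 30.2% of 169 tested genes were higher in BT549 and 5.33% in Hs578T, with a median log2 difference of 0.93, although RB1 itself was higher in Hs578T. Chromosome 20 (20.1% and 7.14%, median 0.82) and chromosome X (20.4% and 15.3%, median 0.63) also leaned to BT549. Chromosome 7 (5.71% and 18.8%, median -0.57) and chromosome 14 (3.45% and 14.8%, median -0.47) leaned to Hs578T. Copy number was not measured in these files, and its part in the result was not tested. Other runs higher in BT549 included CHRDL1, AMOT, IL13RA2 and LRCH2 on chromosome X and CNTN4, TRNT1, SUMF1, LRRN1 and SETMAR on chromosome 3. Within them CHRDL1, a BMP antagonist, had 1197, 406 and 503 in BT549 and 0, 0 and 0.985 in Hs578T, and LRRN1 523, 658 and 567 and 0 in all 3 libraries. Runs higher in Hs578T included SRI, STEAP1, STEAP2 and CDK14 on chromosome 7, SOX5, BCAT1, RASSF8, BHLHE41 and SSPN on chromosome 12, and the antiviral TRIM6, TRIM34 and TRIM5 with HBE1 on chromosome 11. The metalloreductase STEAP1 had 642, 1115 and 102 against 4.99, 0 and 4.91 (-7.00 ± 1.01 (SE), adjusted p = 0.0014), and the clock-related repressor BHLHE41 808, 908 and 1513 against 13.7, 44.0 and 25.3 (-5.32 ± 0.48 (SE), adjusted p = 1.2e-04). Without at least 1 single library, the calls of TRNT1, SUMF1, SETMAR, SRI, RASSF8, TRIM6, TRIM34 and TRIM5 were lost, with adjusted p from 0.0501 for TRIM5 (without Hs578T siCtrl 1) to 0.16 for SETMAR (without BT549 siCtrl 3) at the highest.

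The siASAP1 libraries of the same lines share no library with the controls and repeat the line contrast. There, 1091 of 10106 tested probes were called higher in BT549 (10.8%) and 1252 in Hs578T (12.4%). Of the 887 probes called higher in BT549 controls that were also tested there, 606 were called again (68.3%) and 874 had the same sign. Of the 1000 called higher in Hs578T, 792 were called again (79.2%) and 995 had the same sign. With the same limma call rule, 0 probes of either group were called in the opposite direction. The median log2 difference of these probes with siASAP1 was 2.29 for those called higher in BT549 controls and -3.16 for those called higher in Hs578T controls. COL6A3 stood at -6.44 with siASAP1 and -6.87 in controls, and RB1 at -5.03 and -6.41. HIST1H1B, UCHL1 and VCX, named by a rule that required a call in both sets, had 11.42, 10.63 and -11.45 with siASAP1. A limma interaction of line and treatment over the 12 libraries called 0 of 9997 probes (lowest adjusted p = 0.61), and 317 fell below an unadjusted p of 0.05. Named genes that passed in controls but not with siASAP1 (TCF4 at 0.69, LPAR6 at 1.13, GADD45A at 0.63 against -1.48 in controls, PFKFB4 at 0.18 and VIM at -1.001) are thus not shown to differ between the treatments.

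**Figure D5:**
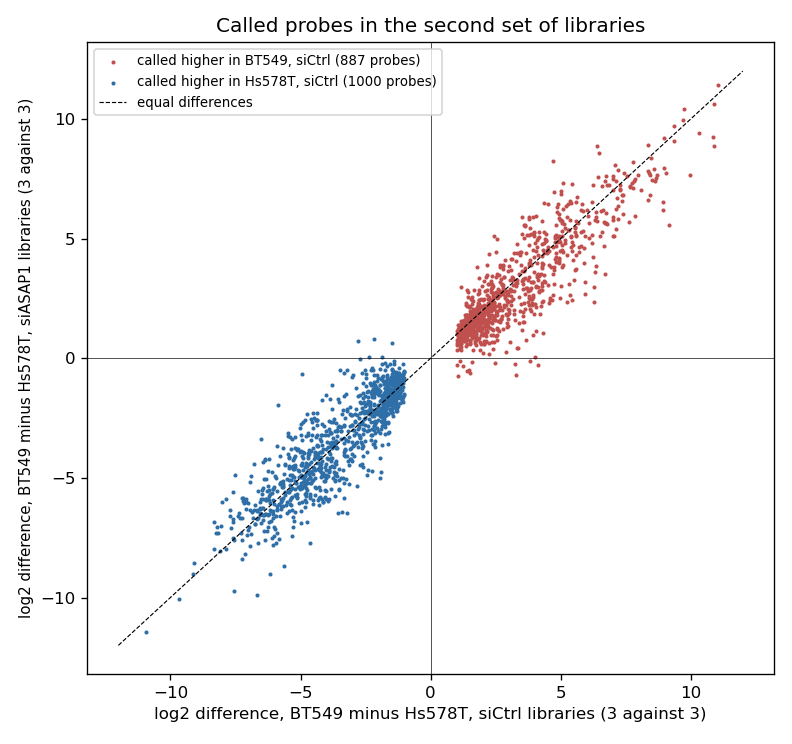
Log2 difference (BT549 minus Hs578T) of each called probe in the siCtrl libraries (x axis) and in the siASAP1 libraries (y axis), each from 3 against 3 libraries. The 887 red and 1000 blue points lie around the dashed line of equal differences, and 874 and 995 of them keep their sign.

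Markers of other cell types were summed per library. The 13 tested fibroblast and pericyte markers, several of them also on the matrix lists, were called higher in Hs578T in 7 and in BT549 in 0, and 16 such markers summed to 49921 to 56773 normalised counts in Hs578T and 14110 to 19176 in BT549, with 3 of them at 0 reads in each line. The 19 leukocyte markers summed to 132 to 215 in Hs578T and 12.5 to 56.8 in BT549, with 13 and 8 of them at 0 reads in the respective line. LCP1 (-3.87) and CD68 (-3.58) were the 2 that could be tested, and the LCP1 call was lost without Hs578T siCtrl 2 (adjusted p = 0.06). The 13 endothelial markers summed to 209 to 243 and 32.4 to 37.9, and among them the transcription factor ERG had 86.9, 84.0 and 130.05 against 0 in all 3 BT549 libraries. Melanocyte and neural markers summed to 6159 to 12019 in BT549, where UCHL1 contributed most, and to 194 to 305 in Hs578T. Each lysate was of a single established cell line, so these sums count RNA of marker genes and not cells of other types. Expression in fewer cells of the line and less RNA per cell cannot be told apart in such lysates. The part of these markers in the line differences was not tested.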

How the data were processed

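Whole-transcriptome TempO-Seq was run on lysates of cells transfected with siCtrl or siASAP1 in biological triplicate, according to the study's methods. The authors deposited 1 table of log2 values per probe, which the values show to be log2(read count divided by a size factor + 1). The labels name bcl2fastq, Bowtie and DESeq2 in the submitters' processing notes, and versions were not given in the sources used here. Dividing out the steps between low values returned whole reads for 100% of values (tolerance 0.1), which gave the depth of each library, 5.76 to 9.46 M reads. The normalised count here is 2 to the power of the deposited log2 value, minus 1.

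Probes with a mean normalised count of at least 10 over the 6 libraries were tested on the deposited log2 values, whose pseudocount of 1 understates the change of low genes. The test was limma (version 3.58.1, R 4.3.3) with a trended empirical Bayes variance, on the 6 libraries alone and with no covariate. A probe was called at a Benjamini-Hochberg adjusted p under 0.05 and an absolute log2 difference over 1, and all adjusted p-values are over all tested probes. The script was tested on simulated data. Folds were ratios of mean normalised counts. Against a line at 0 reads they were bounds at 3 reads per library, and at 1 to 3 reads they were ratios of summed reads over summed size factors with a 95% counting interval, which covers counting error only. Each line is a single established line, so that p-values measure the spread between its libraries only.

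Named were the 10 called genes with the largest difference in each direction among those called in the siASAP1 libraries too, up to 4 called genes of each list, fixed genes such as HRAS and CD44, the neighbours of RB1 and CDKN2A, and genes of runs of 4 or more called neighbours. Y-linked genes were left out, and some items are not reported here. The members and lists were chosen with earlier results of these data known, so no list is independent support. Gene positions used GENCODE release 29 and promoter letters the RefSeq table (GRCh38.p14), which held a window for 82.3% of the 9268 tested genes. Alternatives to the scaling, filter, pseudocount, replicate block, pooled fit and weights were tried, and each library was left out in turn. The fit without both BT549 siCtrl 1 and Hs578T siCtrl 3 was added after seeing the data.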

Additional observations from a re-analysis of the deposited data

How the results depend on the processing

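With the libraries left out in turn, the probes called higher in BT549 ranged from 430 to 1204 and those called higher in Hs578T from 667 to 1306. Leaving out both libraries that stood apart gave 1879 and 2025, and this was the setting at which the direction of KRT8, not called in the full set, turned from -0.32 to 1.01 with a call. The cause was not tested. A looser call rule after the study's methods (unadjusted p under 0.05 with the same minimum difference) gave 1450 higher in BT549 and 2118 calls shared with the siASAP1 libraries where the limits used here gave 1398. Counts stayed within 1.5 times under TMM scaling (965 and 1011), library totals (1089 and 909), no filter (1017 and 1110), a minimum of 50 (693 and 728), a pseudocount of 0.1 (782 and 921), voom weights (915 and 1048) and a fit over all 18 libraries (793 and 952). In none of these settings was a called probe called in the opposite direction. The number of called named genes (290 in all) that lost their call ran from 0 (probes of a gene summed) and 5 (TMM) to 80 (without BT549 siCtrl 3), and those below a minimum of 50 were not tested under it. The replicate numbers of the labels were shared between the lines, but the deviations of same-numbered libraries correlated at 0.049, 0.035 and -0.003. Same-numbered libraries were not treated as pairs, and whether they shared a batch cannot be told from these values. A fit with the number as a replicate block called 1057 and 1127, and the interaction with the block called 0 probes by limma (317 had an unadjusted p under 0.05 without the block). Depth limits low genes most, since a probe at the filter's minimum of 10 rests on few reads in each library.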
